A study of Mus musculus with 20 samples.

Results

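Claudins and keratins are the 2 gene families examined here, chosen by symbol alone (Cldn or Krt followed by digits) from a table of 21361 mouse genes. The rule took 68 genes, 22 claudins and 46 keratins, and used no measured value. Each of the 68 had at least 1 count in some library, and 34 of them, 12 claudins and 22 keratins, passed the filter on low counts and were tested. The 34 that did not pass reached at most 0.36 CPM (counts scaled to the library total) among claudins (Cldn8) and 0.389 CPM among keratins (Krt27) in any library. One keratin, Krt85, has no entry in the annotation used and therefore no length.

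Claudins are membrane proteins with 4 transmembrane passes that polymerise into the strands of tight junctions and set which ions and molecules pass between neighbouring epithelial cells. Keratins are the intermediate filaments of epithelia and form filaments only as pairs of a type I and a type II protein. Krt8 and Krt18 are the pair of simple epithelia and the earliest keratins of the mouse embryo. Epiblast-like cells (EpiLCs) are made in culture from embryonic stem cells (ESCs) and model the epiblast after implantation, which forms a polarised epithelium, whereas naive ESCs grow as compact domes.

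The data are 20 mouse libraries of poly(A) RNA, each labelled with its line. Wildtype ESC lines came from host embryos and carry the strain label C57Bl6J (ESC Host, n = 4). Lines of strain label C57Bl6J/129SvEvRoEp were a Bax heterozygous ESC line (ESC BaxHet, n = 1), ESC lines without Bax (ESC BaxKO, n = 2) and lines without Bax named after primordial germ cells (PGC-ESC BaxKO, n = 5). PGC-ESC lines of strain label C57Bl6J lacked Puma and Noxa (PGC-ESC DKO, n = 3), and both kinds of C57Bl6J line gave EpiLCs, from host lines 3 and 4 for EpiLC Host (n = 2) and DKO lines 1 to 3 for EpiLC DKO (n = 3). The labels give ESC culture on gelatin with LIF and inhibitors of GSK3 and MEK, and the steps to EpiLCs were not given. The count table also holds a row named EGFP, which was at 568 to 9722 CPM in the DKO and Bax sets and at 0 to 0.547 CPM in the Host libraries. The Bax sets differ from the Host and DKO sets in genotype, strain label, EGFP level and, for some pairs, derivation, which cannot be told apart. Host and DKO sets share a strain label but differ in genotype, EGFP level and derivation, which cannot be told apart either. With 1 line or a few per group each line weighs heavily.

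Bax stood at 1.66 to 2.43 CPM in the 7 Bax knockout lines and at 109.6 to 533 CPM elsewhere, and Noxa (Pmaip1) at 1.26 to 5.69 CPM in the 6 DKO libraries and 4.34 to 333 CPM elsewhere, with PGC-ESC BaxKO 2 and 5 in the DKO range. Reads of Puma (Bbc3) did not separate the DKO libraries (27.5 to 90.5 CPM against 28.2 to 94.3 CPM elsewhere); the deleted part of the gene is not given here. Totals per library were 14255399 to 33376660 counts. The ribosomal precursor Rn45s was below 10000 CPM in the 5 PGC-ESC BaxKO lines, host ESC lines 1 and 2, ESC BaxKO 1 and ESC BaxHet, and above it in the other libraries, including all EpiLC and all PGC-ESC DKO libraries. Naive ESC markers summed to 2202 to 3522 CPM in the 15 ESC and PGC-ESC libraries and to 72.6 to 140.2 CPM in the 5 EpiLC libraries, and EpiLC markers to 128 to 288 CPM against 1576 to 3191 CPM. Trophoblast markers summed to 38.0 to 100.2 CPM in ESC and PGC-ESC libraries and 11.8 to 18.7 CPM in EpiLCs, where Eomes led and Elf5 was at 0 in EpiLC Host. Surface ectoderm markers, led by Sfn, summed to 69.8 to 181 CPM and 53.9 to 120.3 CPM. Primitive endoderm markers summed to 4.37 to 15.4 CPM and, led by Dab2, to 16.4 to 36.4 CPM in EpiLCs. Fibroblast and feeder markers summed to 1.74 to 15.6 CPM and, led by Thy1, to 15.4 to 22.8 CPM, with Postn at 0 in EpiLC Host. The part of such cells in the results below was not tested, and in bulk RNA fewer expressing cells and less RNA per cell cannot be told apart.

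The promoters of 4 genes are shown because the account of EpiLC conversion below turns on them: Cldn6, Cldn7 and Krt18, which were higher in EpiLCs, and Krt42, which was lower. Each is the RefSeq window on GRCm38.p6 from 250 bases before to 50 after an annotated start, 5′ to 3′ on the gene's strand, and Cldn7 has 2 annotated starts. Capitals mark every match on either strand to TATAAA (letters bound by TBP), GGGCGG (bound by Sp1-type factors), CACCTG (the E-box that Snail and Zeb factors bind) or AACNNGTT (the core letters bound by grainyhead-like factors), and no printed matches overlap.
Cldn6, chr17:23679115-23679414, plus strand: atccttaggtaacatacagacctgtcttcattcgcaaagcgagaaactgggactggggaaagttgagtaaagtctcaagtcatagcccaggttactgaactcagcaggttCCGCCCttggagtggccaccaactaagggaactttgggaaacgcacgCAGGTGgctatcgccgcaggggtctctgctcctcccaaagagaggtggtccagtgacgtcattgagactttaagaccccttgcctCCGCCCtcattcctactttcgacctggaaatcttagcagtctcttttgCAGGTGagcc
Cldn7 start 1, chr11:69964529-69964828, plus strand: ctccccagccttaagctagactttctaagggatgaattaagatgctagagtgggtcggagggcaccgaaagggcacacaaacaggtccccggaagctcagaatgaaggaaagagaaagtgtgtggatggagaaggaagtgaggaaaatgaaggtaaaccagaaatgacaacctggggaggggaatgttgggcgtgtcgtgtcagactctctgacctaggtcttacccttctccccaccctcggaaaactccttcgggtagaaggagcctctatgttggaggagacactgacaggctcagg
Cldn7 start 2, chr11:69965171-69965470, plus strand: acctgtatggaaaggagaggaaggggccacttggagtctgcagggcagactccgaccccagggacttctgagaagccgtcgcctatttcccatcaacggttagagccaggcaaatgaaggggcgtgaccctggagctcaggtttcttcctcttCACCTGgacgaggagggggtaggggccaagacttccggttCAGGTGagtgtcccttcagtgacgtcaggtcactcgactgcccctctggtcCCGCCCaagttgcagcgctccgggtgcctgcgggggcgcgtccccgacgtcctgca
Krt18, chr15:102027966-102028265, plus strand: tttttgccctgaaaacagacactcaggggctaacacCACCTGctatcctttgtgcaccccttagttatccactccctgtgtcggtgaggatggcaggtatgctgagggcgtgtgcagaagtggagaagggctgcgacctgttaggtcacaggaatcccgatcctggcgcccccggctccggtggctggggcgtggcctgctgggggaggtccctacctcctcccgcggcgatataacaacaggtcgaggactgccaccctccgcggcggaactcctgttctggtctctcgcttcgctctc
Krt42, chr11:100269902-100270201, minus strand: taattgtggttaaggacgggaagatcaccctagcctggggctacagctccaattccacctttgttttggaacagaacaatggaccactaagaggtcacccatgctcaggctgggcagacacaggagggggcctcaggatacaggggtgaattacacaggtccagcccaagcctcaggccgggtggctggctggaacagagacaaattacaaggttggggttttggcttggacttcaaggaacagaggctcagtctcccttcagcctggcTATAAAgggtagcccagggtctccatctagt

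The Cldn6 window held a CACCTG match at -93 and another at 41, counted from the start, and GGGCGG matches at -140 and -8. The second Cldn7 window held CACCTG at -97 and -57 and GGGCGG at -6, and the Krt18 window held CACCTG at -214. The Krt42 window held TATAAA at 20, and no match lay in the first Cldn7 window. The window of Cldn4, which fell in EpiLCs and is not printed, held CACCTG at -14 and 12. It held GGGCGG at -44 and -5. Both runs of letters were thus found in members that rose and in one that fell. These letters are common: of 32851 windows of 300 bases, 20.21% held CACCTG, 35.66% GGGCGG, 13.62% TATAAA and 4.204% AACNNGTT. The windows differed in CpG content, with 10 CpG in Cldn6, 7 and 17 in the Cldn7 starts, 17 in Krt18 and 2 in Krt42, beside a median of 7 over all windows. A match is only a run of letters and was not tied to binding here.

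More of these genes were called on conversion to EpiLCs than in any other of the 8 comparisons made. In EpiLC Host against ESC Host, 22 of the 34 tested members (64.7%) were called at an adjusted p under 0.05, beside 44.0% of all genes tested. Of the 12 claudins 7 rose and 4 fell, and of the 22 keratins 5 rose and 6 fell. In EpiLC DKO against PGC-ESC DKO, 23 members (67.6%) were called, beside 47.6% of all genes, with 7 claudins higher and 3 lower and 7 keratins higher and 6 lower. The median log2 change over tested claudins was 1.21 in Host and 1.33 in DKO cells, and over keratins 0.11 and 0.08, against -0.03 and 0.01 over all genes. These comparisons share no library: 20 members were called in both, 12 higher and 8 lower, with 0 in opposite directions. The 20 are 90.9% of the Host calls and 87% of the DKO calls, beside 86.5% and 80% over all genes. Passing the filter on low counts could rest on 1 library, since 1 group has n = 1. Cldn1, Krt1, Krt12 and Krt75 had at most 2 counts in any library outside EpiLCs, so they passed through EpiLC libraries. Krt20, Krt79 and Krt9 also stayed below the level of the filter outside EpiLCs, at most at 0.341, 0.379 and 0.149 CPM. They too passed through EpiLC libraries. Higher calls on these members, part of the counts above, were favoured by this filter and add no separate support. Other members could pass through parental libraries alone, and all genes met the same filter. Among libraries with high Rn45s alone, 21 and 24 of 32 members with a value were called, and 7030 and 8215 of all genes. Fitting just the compared groups gave 18 calls among 25 members with a value in Host and 14 among 17 in DKO cells. In those fits 5447 and 8059 of all genes were called. How many genes were tested in fits of part of the libraries is not given here. No share over all genes can therefore be set beside their counts. Without EpiLC Host 4 the Host count was 13 of 32, with 5112 of all genes called, beside 7206 with that library.

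**Figure D1:**
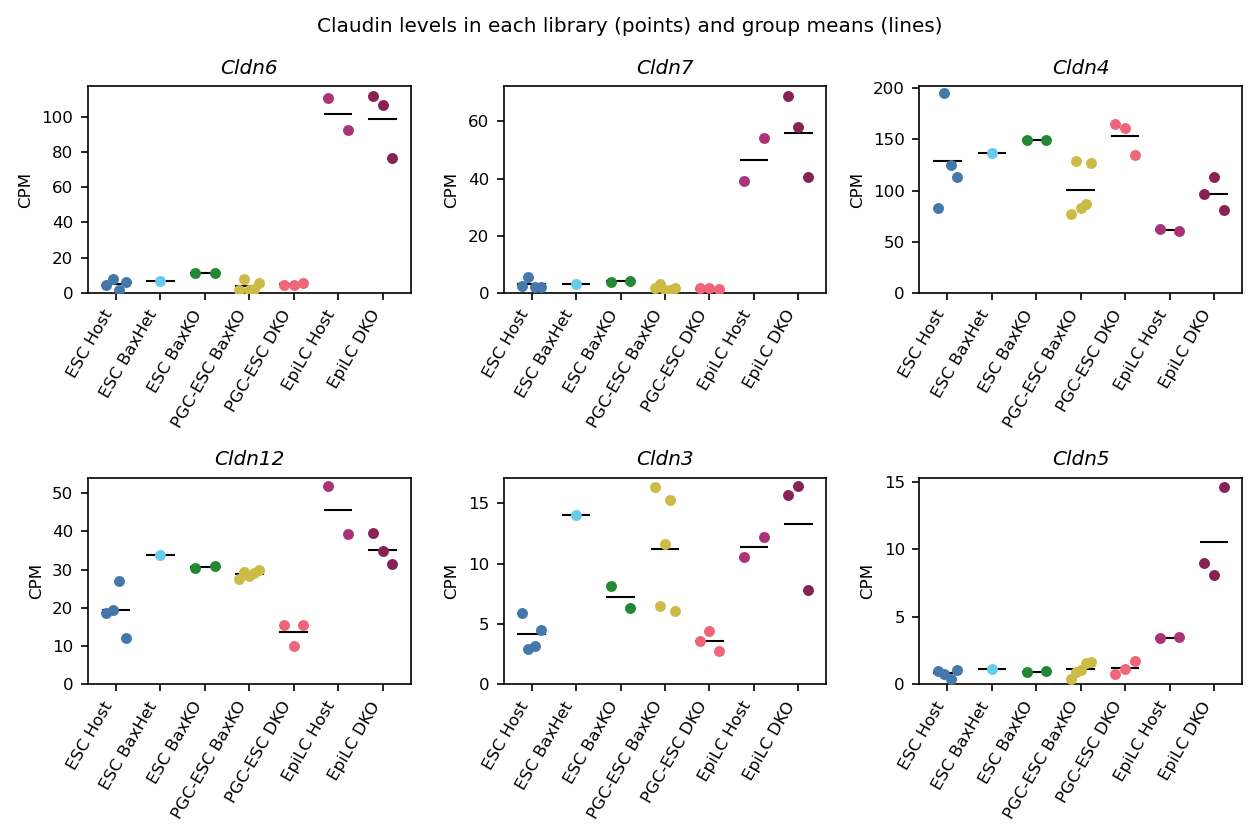
Level of 6 claudins in CPM (vertical axis) in each of the 20 libraries by group; each point is 1 library and each line a group mean. The 5 EpiLC libraries sit at 76.5 to 112 CPM for Cldn6, against at most 11.5 CPM in the other 15.

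Cldn6, a claudin of early embryonic epithelia, was at 111 and 92.4 CPM in the EpiLC Host libraries and 112, 107 and 76.5 CPM in EpiLC DKO. It was at 4.54, 8.01, 1.92 and 5.97 CPM in ESC Host and 4.74, 4.7 and 5.73 CPM in PGC-ESC DKO. All EpiLC values lay far above all parental values. The log2 change was 4.18 ± 0.50 SE, adjusted p = 3.52e-06 in Host and 4.08 ± 0.54 SE, adjusted p = 9.67e-06 in DKO cells.

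Cldn7, a claudin of many epithelia that is found at lateral membranes as well as junctions, was at 39.1 and 54.2 CPM in EpiLC Host against 2.35, 5.59, 2.01 and 2.24 CPM in ESC Host. It was at 69, 58.1 and 40.5 CPM in EpiLC DKO against 1.75, 1.61 and 1.29 CPM in PGC-ESC DKO. Groups did not overlap in either line set, and ESC Host 2 was the highest of its group. The log2 change was 3.82 ± 0.39 SE, adjusted p = 5.56e-07 and 4.95 ± 0.45 SE, adjusted p = 1.33e-07.

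Cldn4, a barrier-forming claudin and receptor for Clostridium perfringens enterotoxin, moved the other way. It was at 62.9 and 60.1 CPM in EpiLC Host and 83.2, 195, 125 and 114 CPM in ESC Host, and at 96.7, 113 and 80.9 CPM in EpiLC DKO and 165, 161 and 134 CPM in PGC-ESC DKO. EpiLC libraries lay below their parents without overlap, yet above 60 CPM throughout. The log2 change was -1.21 ± 0.28 SE, adjusted p = 0.00198 in Host and -0.87 ± 0.25 SE, adjusted p = 0.00869 in DKO cells.

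Per exon length the leading claudin changed. Cldn4 held 64.3% to 88.1% of the summed claudin CPM per kilobase of exon (RPKM) in the 15 ESC and PGC-ESC libraries and 23.6% to 33.6% in the 5 EpiLC libraries. Cldn6 held 1.36% to 6.34% and then 32.6% to 43.8%, and Cldn7 0.76% to 2.3% and then 13.7% to 20.1%. In EpiLC Host the order by mean RPKM was Cldn6 (59 ± 7.47 RPKM, SD, n = 2), Cldn4 (33.9 ± 1.1 RPKM, SD, n = 2), Cldn7 (23.9 ± 5.47 RPKM, SD, n = 2), Cldn12 (10.8 ± 2.12 RPKM, SD, n = 2) and Cldn3 (9.07 ± 0.931 RPKM, SD, n = 2). In EpiLC DKO, Cldn6 (57.1 ± 11.1 RPKM, SD, n = 3) and Cldn4 (53.3 ± 8.76 RPKM, SD, n = 3) did not differ beyond the spread between lines: their RPKM ratio was 1.22, 0.998 and 0.998. The summed claudin level was 120.5 to 236 CPM in ESC and PGC-ESC libraries and 257 to 347 CPM in EpiLCs, without overlap.

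Other claudins that rose were less abundant. Cldn12, a claudin without the usual PDZ-binding end, was at 52 and 39.3 CPM in EpiLC Host and 18.6, 19.4, 27.1 and 12.2 CPM in ESC Host (log2 change 1.10 ± 0.21 SE, adjusted p = 0.00033), and at 39.6, 34.8 and 31.4 CPM in EpiLC DKO and 15.5, 9.96 and 15.4 CPM in PGC-ESC DKO (log2 change 1.17 ± 0.21 SE, adjusted p = 0.000166). The enterotoxin receptor Cldn3 was at 10.6 and 12.3 CPM in EpiLC Host and 5.94, 2.95, 3.22 and 4.53 CPM in ESC Host (log2 change 1.31 ± 0.39 SE, adjusted p = 0.0113). In EpiLC DKO it was at 15.7, 16.5 and 7.84 CPM, against 3.6, 4.42 and 2.77 CPM in PGC-ESC DKO (log2 change 1.68 ± 0.40 SE, adjusted p = 0.00207). Both genes rose without overlap against their own parents, but the Bax lines reached 27.5 to 33.9 CPM of Cldn12 and 6.1 to 16.4 CPM of Cldn3 without conversion.

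Cldn5, known as the claudin of the blood-brain barrier, was at 3.45 and 3.51 CPM in EpiLC Host and 8.99, 8.12 and 14.6 CPM in EpiLC DKO, against 0.984, 0.792, 0.402 and 1.09 CPM and 0.769, 1.12 and 1.74 CPM in the parents. Its log2 change was 1.95 ± 0.45 SE, adjusted p = 0.00194 in Host and 2.96 ± 0.46 SE, adjusted p = 5.23e-05 in DKO cells. EpiLC DKO values were all above EpiLC Host values, but this difference was not called (log2 difference 1.62 ± 0.49 SE, adjusted p = 0.896), nor was the difference of responses (log2 difference 1.01 ± 0.65 SE, adjusted p = 1).

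Cldn9, which is needed for hearing in mice, lies 137 bases from Cldn6 on chromosome 17 and on the opposite strand, so their 3′ ends face each other. It was at 5.15 and 2.19 CPM in EpiLC Host and 3.89, 4.45 and 2.3 CPM in EpiLC DKO, against 0.909, 0.924, 0.216 and 0.547 CPM and 0.461, 1.33 and 1.61 CPM in the parents. It rose with Cldn6 (log2 change 2.38 ± 0.60 SE, adjusted p = 0.00387 in Host and 1.49 ± 0.60 SE, adjusted p = 0.0497 in DKO cells), at a far lower level. The strand of counting is not given, so reads past a Cldn6 end cannot be told apart from Cldn9 reads. Cldn1, the claudin of the epidermal barrier, had 0 counts in ESC Host and 47 in EpiLC Host, at least 31.8-fold higher taking 3 counts over the group as the floor (adjusted p = 8.49e-05). In DKO cells it had 1 and 34 counts, a ratio of 27.8 with a counting interval of 4.67 to 1130.3 (adjusted p = 0.00397). Fold floors and counting intervals cover counting error only.

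The claudins that fell besides Cldn4 were all under 1 CPM in EpiLCs. Cldn15, which forms a cation pore in the intestine, was at 0.213 and 0.0754 CPM in EpiLC Host and 0.681, 0.66, 0.34 and 0.448 CPM in ESC Host (log2 change -1.99 ± 0.73 SE, adjusted p = 0.0341), and its DKO change was not called (log2 change -1.57 ± 0.66 SE, adjusted p = 0.0599). Cldn19, a claudin of the kidney, was at 0.426 and 0.189 CPM in EpiLC Host and 2.5, 1.06, 0.804 and 0.696 CPM in ESC Host (log2 change -2.15 ± 0.73 SE, adjusted p = 0.023), and its log2 change in DKO cells was -2.05 ± 0.68 SE, adjusted p = 0.02. Cldn20 was at 0.255 and 0.0377 CPM in EpiLC Host and 0.379, 0.396, 0.742 and 0.796 CPM in ESC Host (log2 change -2.14 ± 0.63 SE, adjusted p = 0.0106), and its log2 change in DKO cells was -1.52 ± 0.57 SE, adjusted p = 0.0363. With the parent line as a block, Cldn15 and Cldn19 lost the Host call (adjusted p = 0.124 and 0.0646) and Cldn20 the DKO call (adjusted p = 0.0886). Cldn3, Cldn19 and Cldn20 overlap other annotated genes, and how reads of such pairs were counted is not given. The same limit holds for Krt5, Krt7, Krt8, Krt10, Krt12, Krt75 and Krt80 below.

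**Figure D2:**
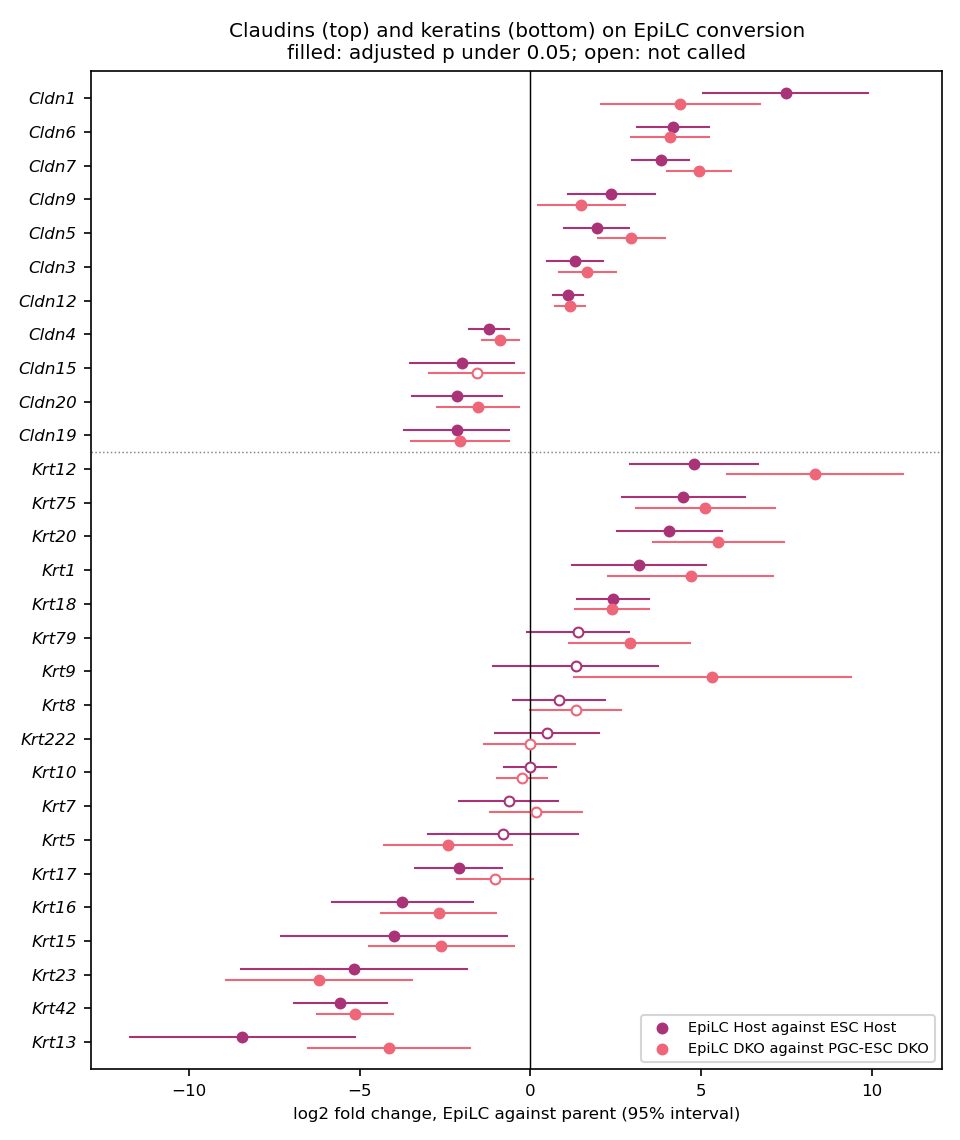
Log2 fold change on EpiLC conversion (horizontal axis, with 95% interval) for the 29 named members, claudins above and keratins below the dotted line, in Host and DKO cells; filled points are called and open points are not. Host and DKO points lie on the same side of 0 for all claudins shown, and the fitted size for genes with 0 to 3 counts in a group depends on the prior count.

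Calls on claudins of low level rested on single libraries in some cases. In Host cells, Cldn15 lost its call without EpiLC Host 3, EpiLC Host 4, ESC Host 1 or ESC Host 2 (adjusted p 0.0544 to 0.257). Cldn19 lost it without EpiLC Host 3, EpiLC Host 4 or ESC Host 1 (adjusted p 0.0522 to 0.193). Without EpiLC Host 4 the call on Cldn20 (adjusted p = 0.161) and on Cldn3 (adjusted p = 0.0783) was lost, and without EpiLC Host 3 that on Cldn9 (adjusted p = 0.112). In DKO cells, Cldn9 lost its call without any of EpiLC DKO 1 or 2 or PGC-ESC DKO 1, 2 or 3 (adjusted p 0.0519 to 0.191). Cldn19 lost it without EpiLC DKO 1 or PGC-ESC DKO 2 or 3 (adjusted p 0.0591 to 0.0879), and Cldn20 without EpiLC DKO 1 or 2 or PGC-ESC DKO 1 or 2 (adjusted p 0.0637 to 0.141). Cldn6, Cldn7, Cldn4, Cldn12, Cldn5 and Cldn1 kept their calls in both line sets without any 1 library. Other settings also ended some of these calls: with the Rn45s set as a term Cldn15 and Cldn19 lost the Host call (adjusted p = 0.0689 and 0.0902), as they did among libraries with high Rn45s alone (adjusted p = 0.0935 and 0.104), and with just the compared groups fitted Cldn20 lost it (adjusted p = 0.0714). In DKO cells Cldn9 lost its call with no filter on low counts (adjusted p = 0.0516) and with a term for Y-linked reads (adjusted p = 0.0645), and Cldn20 with no filter (adjusted p = 0.0509).

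Among keratins, Krt18 rose and Krt42 fell in both line sets. Krt8 was not called in the fit of all 20 libraries without a block. It was called when EpiLC libraries were paired with their parent lines. Krt18, the type I partner of Krt8, was at 33.3 and 30.2 CPM in EpiLC Host and 31, 33.4 and 30.1 CPM in EpiLC DKO. It was at 4.16, 11.4, 3.09 and 3.28 CPM in ESC Host and 1.78, 4.28 and 9.98 CPM in PGC-ESC DKO. The 5 EpiLC libraries lay close together, whereas ESC Host 2 and PGC-ESC DKO 3 stood above the other lines of their groups. The log2 change was 2.43 ± 0.50 SE, adjusted p = 0.000747 in Host and 2.40 ± 0.52 SE, adjusted p = 0.00103 in DKO cells.

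Krt8, the type II partner, lies next to Krt18 on chromosome 15. It was at 30.6 and 23.7 CPM in EpiLC Host and 10.4, 33.1, 5.6 and 7.46 CPM in ESC Host, where ESC Host 2 overlapped the EpiLC range. It was at 28, 33.5 and 29.6 CPM in EpiLC DKO and 4.89, 9.33 and 18 CPM in PGC-ESC DKO, without overlap. Neither difference was called in the fit of all 20 libraries without a block. The log2 change was 0.85 ± 0.64 SE, adjusted p = 0.299 with a 95% interval of -0.50 to 2.19 in Host cells. In DKO cells it was 1.33 ± 0.63 SE, adjusted p = 0.0933 with an interval of -0.01 to 2.66. Each EpiLC library was above its own parent line. With the parent line as a block, in a fit that leaves out ESC Host 1 and 2, which have no EpiLC partner, Krt8 was called higher in both (log2 change 1.83, adjusted p = 0.00312 in Host and 1.48, adjusted p = 0.00259 in DKO cells). That fit drops ESC Host 2, the line that overlapped, so in Host cells it does not separate pairing from the absence of that line. Fits without ESC Host 2 and without a block were run, but calls on Krt8 under these and the other settings were not followed. Of the 50-base stretches of Krt8 transcripts, 29.7% also occur in another gene, 26.9% in a Krt8 pseudogene that is not in the table, so its level is uncertain.

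**Figure D3:**
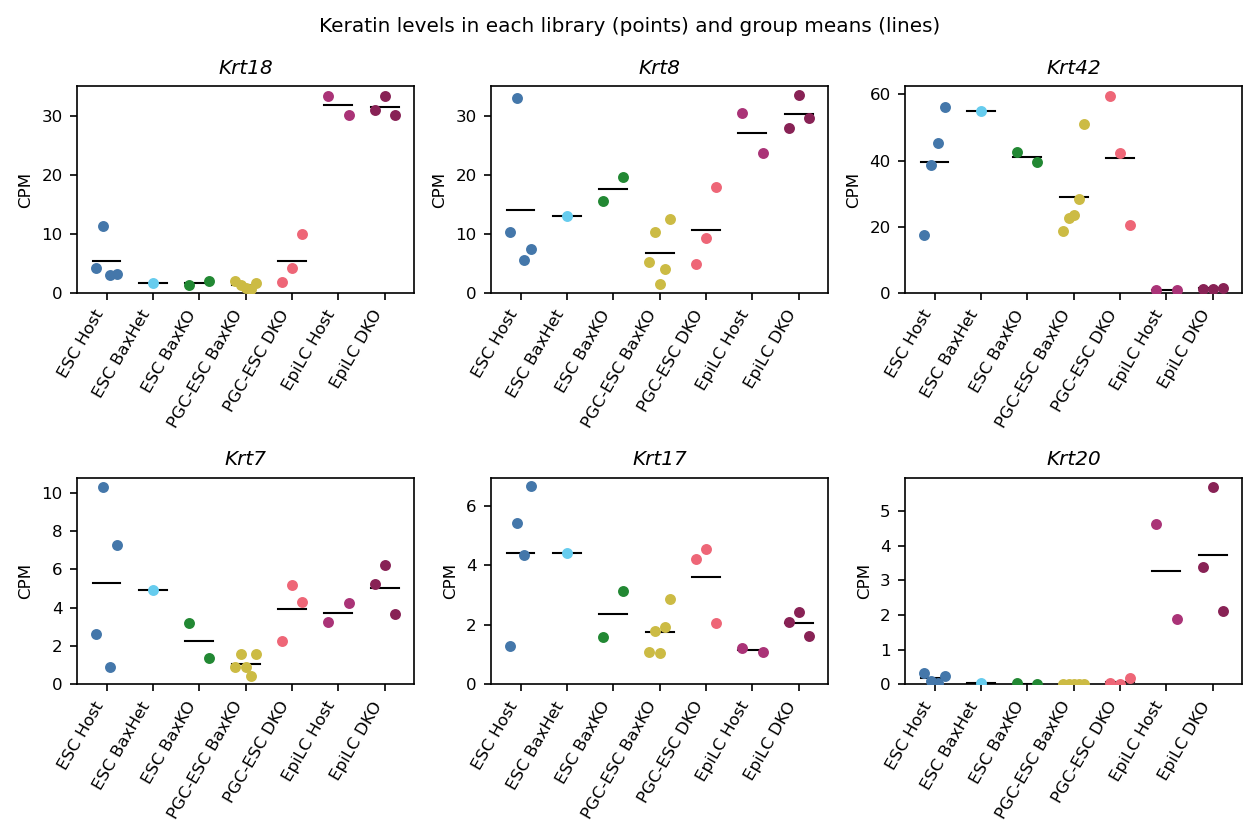
Level of 6 keratins in CPM (vertical axis) in each library by group; each point is 1 library and each line a group mean. EpiLC libraries are at 30.1 to 33.4 CPM for Krt18 and at 0.905 to 1.56 CPM for Krt42.

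Krt42, a type I keratin whose human counterpart is a pseudogene, was at 17.5, 38.7, 45.1 and 56.3 CPM in ESC Host and 59.6, 42.2 and 20.6 CPM in PGC-ESC DKO. In EpiLC Host it was at 0.979 and 0.905 CPM, and in EpiLC DKO at 1.2, 1.35 and 1.56 CPM. Every EpiLC value was under 2 CPM and every value elsewhere above 17 CPM. The log2 change was -5.56 ± 0.65 SE, adjusted p = 2.54e-06 in Host and -5.13 ± 0.53 SE, adjusted p = 6.11e-07 in DKO cells. Of the 3 keratins with a group mean of at least 10 CPM, Krt42 was the one that fell.

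Per exon length, Krt42 held 32.5% to 74.9% of the summed keratin RPKM in ESC and PGC-ESC libraries and 1.11% to 1.89% in EpiLCs. Krt18 held 2.04% to 19.3% and then 41.9% to 49.9%, and Krt8 4.38% to 27.1% and then 28.8% to 32.3%. The ratio of Krt8 to Krt18 in RPKM was 1.32 to 8.53 in the ESC and PGC-ESC libraries and 0.577 to 0.737 in EpiLCs, without overlap. The summed keratin level overlapped: 33.4 to 119 CPM in ESC and PGC-ESC libraries and 75.6 to 102 CPM in EpiLCs. The make-up of the keratins therefore differed while their summed level overlapped.

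**Figure D4:**
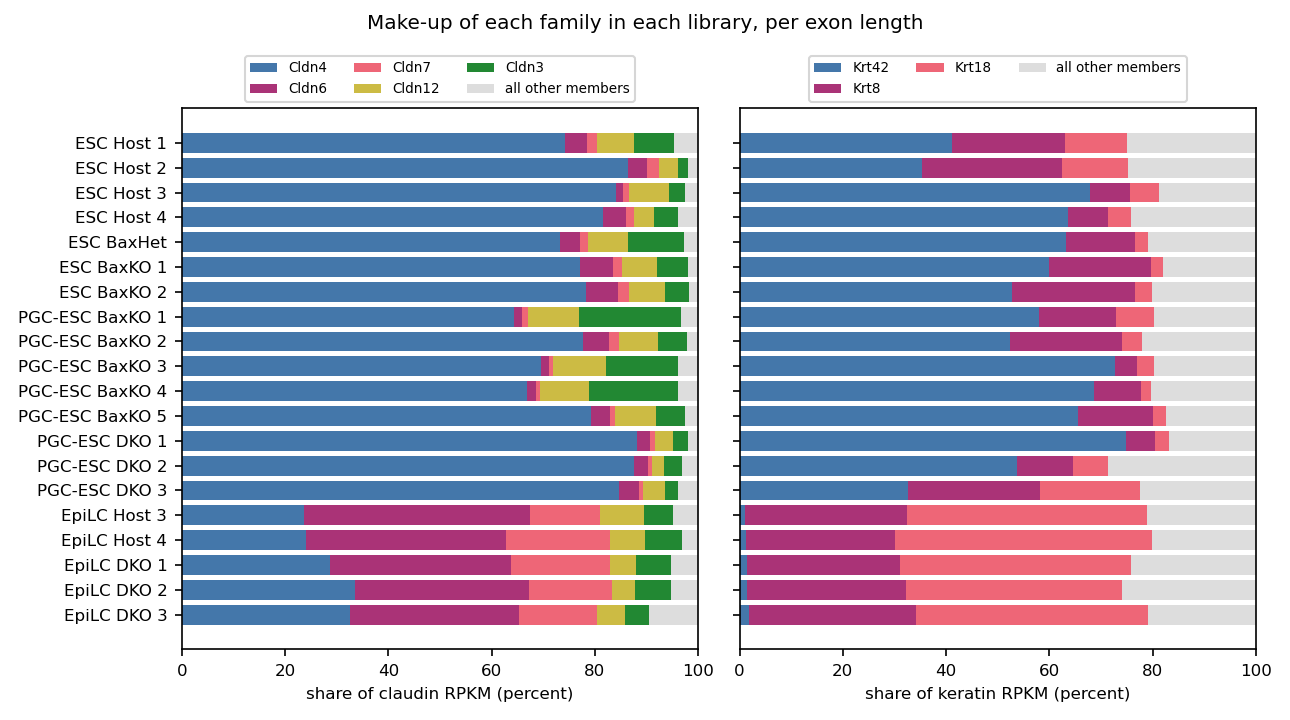
Share of the summed RPKM of each family (horizontal axis, percent) held by its leading members in each of the 20 libraries (rows); left claudins, right keratins. Cldn4 and Krt42 take the widest bars in most ESC and PGC-ESC rows, and Cldn6 with Cldn4 and Krt18 with Krt8 in the EpiLC rows.

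Other keratins rose from near 0. Krt20, known from intestinal and bladder epithelium, was at 4.64 and 1.89 CPM in EpiLC Host and 3.39, 5.69 and 2.12 CPM in EpiLC DKO, against 0.341, 0.088, 0.0309 and 0.249 CPM in ESC Host and 0.0307, 0 and 0.193 CPM in PGC-ESC DKO. It was at 0 in all PGC-ESC BaxKO lines, and its log2 change was 4.07 ± 0.72 SE, adjusted p = 0.0004 in Host and 5.52 ± 0.89 SE, adjusted p = 0.000187 in DKO cells. Krt12, the corneal type I keratin, had 2 counts in ESC Host and 37 in EpiLC Host, a ratio of 37.6 (counting interval 9.69 to 322), and 0 and 126 counts in DKO cells, at least 34.4-fold higher (adjusted p = 0.000728 and 0.000123). Of its 50-base stretches, 42% are shared with the antisense gene A830036E02Rik, and reads of the pair cannot be told apart without strand. Krt75, a hair follicle keratin, had 2 and 29 counts in Host cells, a ratio of 29.4 (7.45 to 255), and 1 and 61 in DKO cells, a ratio of 49.9 (8.62 to 2003; adjusted p = 0.000637 and 0.000516). Krt1, the type II keratin of suprabasal epidermis, rose to 0.34 and 0.566 CPM in EpiLC Host (log2 change 3.19 ± 0.91 SE, adjusted p = 0.0125) and 0.809, 0.636 and 0.435 CPM in EpiLC DKO, where the ratio was 41.7 (7.16 to 1679.5; adjusted p = 0.00378).

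Krt79 and Krt9, the latter a keratin of palm and sole skin, were called in DKO cells alone. Krt79 was at 0.749, 0.898 and 0.311 CPM in EpiLC DKO and 0.154, 0 and 0 CPM in PGC-ESC DKO (log2 change 2.92 ± 0.84 SE, adjusted p = 0.00869), and in Host cells its log2 change was 1.39 ± 0.71 SE, adjusted p = 0.122. Krt9 had 0 counts in PGC-ESC DKO and 14 in EpiLC DKO, at least 3.82-fold higher (adjusted p = 0.0311). The difference of responses was not called for either (adjusted p = 1 for both), so the line sets are not shown to differ.

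Besides Krt42, 5 keratins fell in each line set: Krt13, Krt15, Krt16, Krt17 and Krt23 in Host cells and Krt5, Krt13, Krt15, Krt16 and Krt23 in DKO cells. On chromosome 11, which holds the type I cluster, 14 keratins were tested, of which 6 fell and 2 rose in Host cells and 5 fell and 3 rose in DKO cells. On chromosome 15, which holds the type II cluster and Krt18, 8 were tested, of which 0 fell and 3 rose in Host cells and 1 fell and 4 rose in DKO cells. Of all tested keratins 50% and 59.1% were called, beside 44.0% and 47.6% of all genes. Other genes of these chromosomes were not counted, and several of the keratin calls depend on 1 library, as given below. No difference between the clusters is read from these counts. Krt13, a keratin of internal stratified epithelia, had 164 counts in ESC Host and 0 in EpiLC Host, at least 26.9-fold lower, and 30 and 2 counts in DKO cells, a ratio of 18.3 (4.65 to 158; adjusted p = 0.000338 and 0.00596). Krt23 had 17 counts in ESC Host and 19 in PGC-ESC DKO and 0 in EpiLCs, at least 2.79-fold and 7.74-fold lower (adjusted p = 0.0138 and 0.00105). Krt16, a keratin of stressed epidermis, had 56 counts in ESC Host and 2 in EpiLC Host, a ratio of 13.8 (3.64 to 117; adjusted p = 0.00484), and its log2 change in DKO cells was -2.68 ± 0.80 SE, adjusted p = 0.0106. Of the 50-base stretches of Krt16, 37.6% are shared with other genes.

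Krt17, a keratin of hair follicles and stressed epidermis, was at 1.23 and 1.09 CPM in EpiLC Host and 1.29, 5.41, 4.33 and 6.66 CPM in ESC Host (log2 change -2.10 ± 0.61 SE, adjusted p = 0.00966), and its DKO change was not called (log2 change -1.03 ± 0.52 SE, adjusted p = 0.113). Krt15, a basal keratin, had 35 counts in ESC Host and 1 in EpiLC Host, a ratio of 17.2 (2.9 to 699.9; adjusted p = 0.0479), with ESC Host 3 inside the EpiLC range. In DKO cells its log2 change was -2.60 ± 1.01 SE, adjusted p = 0.041. Krt5, the type II keratin of basal epidermis, was at 0.0899, 0.224 and 0.435 CPM in EpiLC DKO and 0.308, 2.31 and 0.708 CPM in PGC-ESC DKO, with overlap (log2 change -2.41 ± 0.89 SE, adjusted p = 0.0334). In Host cells Krt5 was not called (log2 change -0.79 ± 1.05 SE, adjusted p = 0.569). With the parent line as a block, Krt15 and Krt23 lost the Host call (adjusted p = 0.0942 and 0.055). The block added a lower Krt17 in DKO cells (adjusted p = 0.0225), a higher Krt19 in Host cells (log2 change 1.95, adjusted p = 0.0423) and a higher Krt80 in both (adjusted p = 0.0403 and 0.0276). Krt19, a type I keratin of simple epithelia, was at 3.7 and 3.09 CPM in EpiLC Host and 2.01, 7.13, 0.278 and 1.54 CPM in ESC Host. Krt80 had 5 and 8 counts in the EpiLC Host libraries and 0 in both of their parent lines, 21, 14 and 7 counts in EpiLC DKO and 1, 0 and 3 in PGC-ESC DKO.

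Single libraries also decided calls on the weaker keratins. In Host cells, without EpiLC Host 4 the call was lost for Krt1 (adjusted p = 0.095) and Krt16 (adjusted p = 0.0738). Without either EpiLC Host library it was lost for Krt17 (adjusted p 0.0631 to 0.0807) and Krt23 (adjusted p 0.0724 to 0.0813). Krt15 lost it without EpiLC Host 3 or 4 or ESC Host 1, 2 or 4 (adjusted p 0.059 to 0.227). In DKO cells, Krt15 lost it without EpiLC DKO 1 or 3 or PGC-ESC DKO 2 (adjusted p 0.0914 to 0.269). Krt5 lost it without EpiLC DKO 1 or 2 or PGC-ESC DKO 2 (adjusted p 0.0899 to 0.304), and Krt9 without any 1 of the PGC-ESC DKO libraries (adjusted p 0.0579 to 0.0996). Krt18, Krt42, Krt20, Krt12, Krt75 and Krt13 kept their calls in both line sets without any 1 library. Krt1 also lost the Host call with DESeq2 (adjusted p = 0.0857) and with the Rn45s set as a term (adjusted p = 0.0558). Krt15 lost it with RLE scaling (adjusted p = 0.052), with that term (adjusted p = 0.226) and among libraries with high Rn45s alone (adjusted p = 0.299). Among those libraries Krt15 and Krt9 also lost the DKO call (adjusted p = 0.0554 and 0.0517), and Krt9 lost it with DESeq2 (adjusted p = 0.0521).

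Keratins of moderate level that were not called in either EpiLC comparison included Krt7, a type II keratin of simple epithelia, at 3.28 and 4.22 CPM in EpiLC Host and 2.61, 10.3, 0.897 and 7.26 CPM in ESC Host (log2 change -0.63 ± 0.68 SE, adjusted p = 0.477), and its log2 change in DKO cells was 0.17 ± 0.63 SE, adjusted p = 0.849. Krt10, the type I keratin of suprabasal epidermis, was at 6.51 and 5.73 CPM in EpiLC Host and 3.63, 5.24, 4.11 and 8.7 CPM in ESC Host (log2 change -0.00 ± 0.37 SE, adjusted p = 0.997; 95% interval -0.77 to 0.77), and its log2 change in DKO cells was -0.24 ± 0.35 SE, adjusted p = 0.587. Krt222, of low level with at most 0.636 CPM in any library, was also not called in either (log2 change 0.49 ± 0.72 SE, adjusted p = 0.609 and -0.01 ± 0.63 SE, adjusted p = 0.993).

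Lists of related genes, written from textbook knowledge, were read from the same comparisons. Of 20 tested tight junction partners, 9 rose and 3 fell in EpiLC Host and 11 rose and 3 fell in EpiLC DKO (60% and 70% called, beside 44.0% and 47.6% of all genes), with median log2 changes of 0.62 and 0.60 against -0.03 and 0.01 over all genes. Marveld2 (tricellulin), a protein of junctions where 3 cells meet, rose by 2.81 ± 0.30 on the log2 scale in Host and 2.34 ± 0.30 in DKO cells. The junction linker protein Cgn (cingulin) rose by 2.69 ± 0.31 and 3.89 ± 0.34, the scaffold Magi1 by 1.01 ± 0.18 and 1.28 ± 0.18, and the polarity scaffold Patj by 2.35 ± 0.46 and 2.86 ± 0.50. The adhesion molecule Jam2 fell, with log2 changes of -9.32 ± 0.38 and -8.13 ± 0.30. All of these were called in both comparisons (adjusted p 3.89e-12 to 0.000513).

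Of 12 tested genes for desmosomes and keratin anchoring, 4 rose and 2 fell in Host and 6 rose and 2 fell in DKO cells, with medians of 0.52 and 0.67. The share called was 50% and 66.7%, beside 44.0% and 47.6% of all genes, so the Host share is near that of all genes. The plaque protein Pkp2 rose by 2.58 ± 0.19 and 2.36 ± 0.19 on the log2 scale, and the keratin linkers Ppl (periplakin) by 3.10 ± 0.41 and 2.99 ± 0.43 and Evpl (envoplakin) by 1.97 ± 0.30 and 2.94 ± 0.33. Jup (plakoglobin) and the desmosomal cadherin Dsg2 fell, with log2 changes of -1.76 ± 0.23 and -1.98 ± 0.20 and of -2.08 ± 0.31 and -2.10 ± 0.27. All of these were called in both comparisons (adjusted p 1.03e-08 to 5.07e-05).

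Of 13 other intermediate filament genes, 6 rose and 4 fell in Host and 7 rose and 4 fell in DKO cells (76.9% and 84.6% called, beside 44.0% and 47.6% of all genes), with medians of 0.71 and 1.19. The neuronal filaments Prph (peripherin, 4.47 ± 0.29 and 4.92 ± 0.32) and Ina (2.68 ± 0.51 and 2.90 ± 0.53), the progenitor filament Nes (nestin, 3.05 ± 0.23 and 2.61 ± 0.23), Synm (synemin, 1.96 ± 0.38 and 2.29 ± 0.39), Nefh (0.87 ± 0.24 and 1.42 ± 0.23) and the astrocyte filament Gfap (1.55 ± 0.46 and 3.73 ± 0.59) rose on the log2 scale in both (adjusted p 3.09e-09 to 0.0113). The 4 that fell in both, named after their values were seen, were Vim (vimentin, with log2 changes of -1.36 ± 0.42 and -2.22 ± 0.38), the neurofilament Nefm (-1.56 ± 0.60 and -1.69 ± 0.54) and the lamins Lmna (-1.39 ± 0.50 and -1.38 ± 0.45) and Lmnb1 (-0.37 ± 0.13 and -0.38 ± 0.12) (adjusted p 0.000144 to 0.0427). Nefm lost the Host call with the parent line as a block (adjusted p = 0.446).

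Of 20 epithelial state regulators, 7 rose and 7 fell in Host and 8 rose and 8 fell in DKO cells (70% and 80% called, beside 44.0% and 47.6% of all genes), with medians of -0.08 and 0.31. The transcription factors with the smallest adjusted p all fell: Elf3 (-4.39 ± 0.26 and -3.92 ± 0.22 on the log2 scale), Klf5 (-3.59 ± 0.25 and -3.53 ± 0.22), Klf4 (-7.33 ± 0.56 and -6.24 ± 0.45), Grhl3 (-2.85 ± 0.24 and -1.84 ± 0.20) and Tfap2c (-3.84 ± 0.36 and -2.95 ± 0.30). Klf4 is also a naive pluripotency factor. Among the genes that rose, chosen for mention after their values were seen, were the splicing regulator Esrp1 (5.31 ± 0.62 and 5.54 ± 0.69), the adhesion molecule Epcam (2.83 ± 0.36 and 2.27 ± 0.37) and the grainyhead-like factor Grhl2 (2.98 ± 0.47 and 3.70 ± 0.51). All of these were called in both comparisons (adjusted p 3.96e-10 to 8.67e-05). The E-box factor Zeb2 and the factor Twist1 also rose, and the E-box factor Zeb1 fell, each called in both comparisons. With the parent line as a block, log2 changes were 4.73 and 2.28 for Zeb2, 2.59 and 1.84 for Twist1 and -1.48 and -1.63 for Zeb1. Grhl1 and Ovol1 were called higher in both as well.

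The response of these genes was not shown to differ between line sets. For the difference of the DKO and Host responses, 0 members were called, beside 0.00611% of all genes (1 gene), and 0 had an unadjusted p under 0.05 with edgeR; DESeq2 also called 0. For EpiLC DKO against EpiLC Host, 0 members were called, beside 0.0428% of all genes, with 0 by DESeq2 and 2 at an unadjusted p under 0.05. These were Cldn4 (log2 difference 0.66 ± 0.29 SE, adjusted p = 1) and Cldn5. For Krt18 the log2 difference of responses was -0.02 ± 0.72 with a 95% interval of -1.54 to 1.49, and for Cldn7 it was 1.13 ± 0.57 with an interval of -0.08 to 2.33. Such intervals do not show that the responses were alike.

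PGC-ESC lines were set against ESC lines within the Bax genotype and within the C57Bl6J label. In PGC-ESC BaxKO against ESC BaxKO, 0 members were called with edgeR, beside 0.0367% of all genes, and 0 with DESeq2; 6 had an unadjusted p under 0.05. Cldn6 stood at 1.72, 7.86, 1.72, 2.14 and 5.53 CPM in PGC-ESC BaxKO, against 11.5 and 11.5 CPM in ESC BaxKO, without overlap (log2 difference -1.57 ± 0.48 SE, adjusted p = 0.463; 95% interval -2.58 to -0.56). Cldn4 stood at 76.8, 129, 82.9, 86.4 and 127 CPM in PGC-ESC BaxKO, against 149.6 and 149 CPM in ESC BaxKO (log2 difference -0.59 ± 0.25 SE, adjusted p = 0.478), and Cldn7 at 1.6, 3.21, 0.993, 1.05 and 1.64 CPM and 3.87 and 4.16 CPM (log2 difference -1.22 ± 0.39 SE, adjusted p = 0.463). Krt8 stood at 5.34, 10.4, 1.57, 4.12 and 12.5 CPM in PGC-ESC BaxKO, against 15.5 and 19.7 CPM in ESC BaxKO (log2 difference -1.37 ± 0.61 SE, adjusted p = 0.485). The others were Cldn19 and Krt19, and none of the 6 passed the adjustment over all genes. Both ESC BaxKO lines had reads of Y-linked genes (244 and 188 CPM in sum over 4 genes), as did PGC-ESC BaxKO 2 and 5 (214 and 212 CPM), whereas PGC-ESC BaxKO 1, 3 and 4 had 0 and were the 3 lowest lines for Cldn4, Cldn6 and Krt8. A fit with a term for Y-linked reads also called 0 members.

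In PGC-ESC DKO against ESC Host, 0 members were called with edgeR and 0 with DESeq2, beside 0.116% of all genes with edgeR, and 4 had an unadjusted p under 0.05 (Cldn12, Cldn7, Krt13 and Krt5). Krt42 had a log2 difference of 0.10 ± 0.40 SE with a 95% interval of -0.74 to 0.94, and Cldn4 one of 0.32 ± 0.23 SE with an interval of -0.17 to 0.81. In ESC BaxKO against ESC Host, 0 members were called with edgeR, beside 5.02% of all genes, and 7 had an unadjusted p under 0.05. DESeq2 called 2 members, beside 1419 of all genes. With edgeR, 1 member was called without ESC Host 2 and 1 without ESC Host 3, beside 1015 and 537 of all genes. Krt18 was at 1.34 and 1.96 CPM in ESC BaxKO, against 4.16, 11.4, 3.09 and 3.28 CPM in ESC Host, without overlap (log2 difference -1.77 ± 0.60 SE, adjusted p = 0.0979).

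PGC-ESC BaxKO against PGC-ESC DKO is the contrast of parental lines with called members. Of 34 tested, 11 (32.4%) were called, beside 23.6% of all genes: 2 claudins rose, 2 claudins fell and 7 keratins fell. These groups differ in genotype and strain label, and all BaxKO lines are in the low and all DKO lines in the high Rn45s set, so these cannot be told apart. With the Rn45s set as a term in the fit across groups 1 member, Cldn9, stayed called, and without PGC-ESC DKO 2 the number was 4. Over all genes, 204 were called with that term and 1552 without PGC-ESC DKO 2, beside 3858 without either change, so the loss was general to the genes tested. The 10 that lost their call under that term kept their direction (adjusted p 0.0649 to 0.785): the log2 difference was 1.08 for Cldn12, 1.33 for Cldn3, -0.79 for Cldn4, -2.77 for Krt18, -2.63 for Krt7, -3.47 for Krt5, -4.51 for Krt15, -2.13 for Krt23, -2.58 for Krt222 and -0.34 for Krt10. Of these, that of Krt10 moved most toward 0.

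Cldn12 stood at 27.5, 29.3, 28.3, 29.1 and 29.8 CPM in PGC-ESC BaxKO, against 15.5, 9.96 and 15.4 CPM in PGC-ESC DKO (log2 difference 0.92 ± 0.19 SE, adjusted p = 0.00347). The BaxKO lines lay within 1.09-fold of each other and above all DKO lines. Cldn3 stood at 16.4, 6.51, 11.7, 15.3 and 6.1 CPM and 3.6, 4.42 and 2.77 CPM (log2 difference 1.45 ± 0.37 SE, adjusted p = 0.0105). Cldn4 (log2 difference -0.77 ± 0.22 SE, adjusted p = 0.0191) and Cldn9 (log2 difference -2.67 ± 0.62 SE, adjusted p = 0.00724) were lower in PGC-ESC BaxKO. Krt18 stood at 1.96, 1.34, 0.836, 0.686 and 1.64 CPM in PGC-ESC BaxKO, against 1.78, 4.28 and 9.98 CPM in PGC-ESC DKO (log2 difference -2.17 ± 0.47 SE, adjusted p = 0.00467), and Krt7 at 0.92, 1.59, 0.888, 0.444 and 1.6 CPM and 2.28, 5.19 and 4.31 CPM (log2 difference -1.98 ± 0.58 SE, adjusted p = 0.0221). Krt10 (log2 difference -1.02 ± 0.31 SE, adjusted p = 0.0249), Krt5 (log2 difference -3.08 ± 0.80 SE, adjusted p = 0.0124), Krt15 (log2 difference -2.72 ± 0.87 SE, adjusted p = 0.0322), Krt23 (log2 difference -2.73 ± 0.76 SE, adjusted p = 0.0196) and Krt222 (log2 difference -1.96 ± 0.69 SE, adjusted p = 0.0473) were also lower, with overlap of the groups for Krt5 and Krt222. Krt18, Cldn12, Cldn3 and Cldn9 kept their calls without any 1 library. Without PGC-ESC DKO 2 the call was lost for Cldn4 (adjusted p = 0.0867), Krt10 (adjusted p = 0.181), Krt15 (adjusted p = 0.276), Krt222 (adjusted p = 0.109), Krt23 (adjusted p = 0.0766), Krt5 (adjusted p = 0.16) and Krt7 (adjusted p = 0.108). Calls were also lost for Cldn4 without PGC-ESC DKO 1, for Krt10 without PGC-ESC BaxKO 1 or 4, for Krt15 without PGC-ESC BaxKO 1, 2 or 5, for Krt222 without PGC-ESC DKO 1 or PGC-ESC BaxKO 1, 2, 3 or 4, for Krt23 without PGC-ESC DKO 3, and for Krt7 without PGC-ESC DKO 3 or PGC-ESC BaxKO 4 (adjusted p 0.0508 to 0.388).

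Single lines varied within groups. In the PGC-ESC BaxKO group, lines 2 and 5 had Y-linked reads and lines 1, 3 and 4 had none, as given above. Across the series this sum was at least 171 CPM in 6 libraries (both ESC BaxKO lines, PGC-ESC BaxKO 2 and 5, PGC-ESC DKO 3 and EpiLC DKO 3), 15.4 CPM in ESC Host 4, 19.7 CPM in EpiLC Host 4 and 0 in the rest. Cldn4 was at 129 and 127 CPM in lines 2 and 5 and at 76.8, 82.9 and 86.4 CPM in the others, Cldn6 at 7.86 and 5.53 CPM against 1.72, 1.72 and 2.14 CPM, and Krt8 at 10.4 and 12.5 CPM against 5.34, 1.57 and 4.12 CPM. Cldn3 was the reverse, at 6.51 and 6.1 CPM against 16.4, 11.7 and 15.3 CPM. Of the 34 tested members, 13 (38.2%) did not overlap between these lines, 10 above and 3 below, which is under the 50.4% of all genes tested. ESC BaxHet, also without Y-linked reads, was at 137 CPM of Cldn4, 7.05 CPM of Cldn6 and 13 CPM of Krt8, nearer the lines with them, and at 14 CPM of Cldn3, within the range of the lines without them. This is a description of 5 lines with no test.

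**Figure D5:**
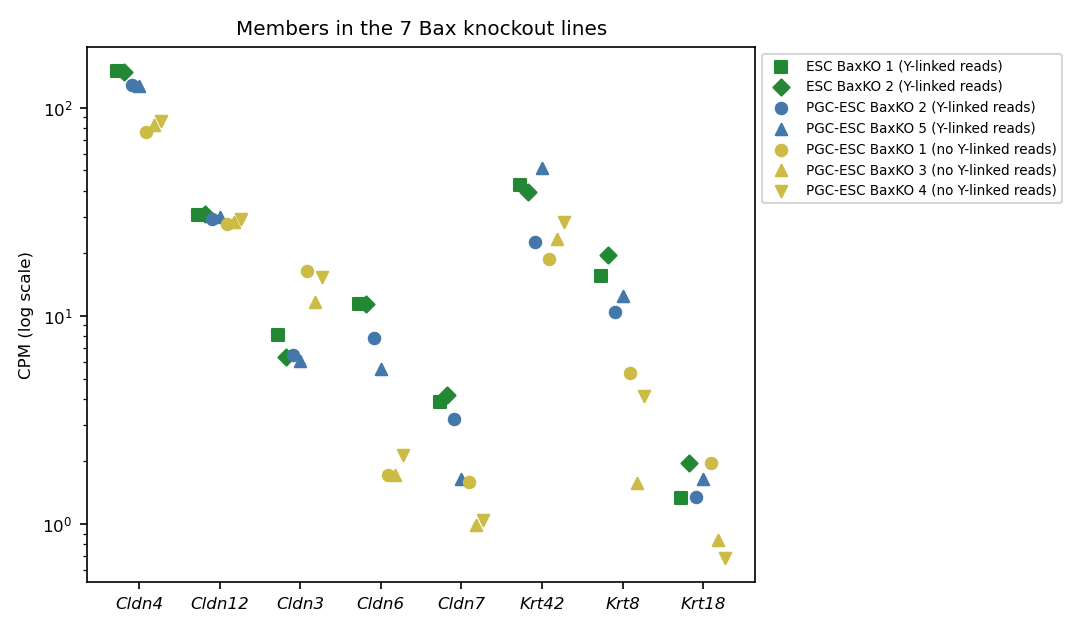
Level of 8 members in CPM (vertical axis, log scale) in the 7 Bax knockout lines; each mark is 1 line, coloured by origin and by whether Y-linked reads were found. PGC-ESC BaxKO lines 2 and 5 lie above lines 1, 3 and 4 for Cldn4, Cldn6 and Krt8 and below them for Cldn3.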

How the data were processed

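For the 20 poly(A) RNA libraries the authors deposited whole-number counts per gene in 1 table. STAR 2.7.7a and build mm10 are named per the submitters' processing notes; the read counter, its annotation and its strand setting were not given in the sources used here. Totals per library were 14255399 to 33376660 counts. The test was the quasi-likelihood F test of edgeR 4.0.16 (R 4.3.3), with TMM scaling, a coefficient for each of 7 groups and 13 residual degrees of freedom. Of 21361 genes, 16363 passed the default filter on low counts. Two-sided p-values were adjusted over all 16363 by Benjamini-Hochberg, and calls were made below 0.05. The 8 comparisons share libraries in part (ESC Host serves 3 of them), except that the EpiLC Host and EpiLC DKO comparisons share none. Levels are CPM of the library total, and RPKM divides CPM by the exon union of GENCODE M21 on the same build. Fold floors use 3 counts over the group. Scripts were tested on simulated data.

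The members and gene lists were chosen with earlier results of these data known. Named members are those called in any comparison or with a group mean of at least 10 CPM; of each gene list, up to 5 called genes with the smallest adjusted p in each EpiLC comparison are named. EpiLC libraries come, per the labels, from the ESC and PGC-ESC lines of the same number, and the deviations of these pairs from their group means correlated at 0.093 to 0.172 across genes. Replicates of a group differed by 7.1 to 240.0 in chi-square per gene, above counting error. The labels name lines as the replicates, so p-values measure the spread between these lines. Alternatives were DESeq2 1.42.0, RLE scaling, no filter, a threshold of 0.01, only the compared groups, a replicate block, Rn45s as a filter or a term, and leaving out each library; a term for Y-linked reads was added after seeing the data.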

Additional observations from a re-analysis of the deposited data

Results flagged for a closer look

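In 9 of 58 sets of a member and a group of 4 or 5 lines, the highest line stood apart from the rest. The measure was the ratio of its gap to the whole range. Independent normal values would give about 1 in 20 such sets. The values are unlogged CPM and the sets share the same lines, so that rate is a rough guide only. Where only 1 line has counts the ratio is 1 by construction and that rate does not apply; this holds for 4 of the 9, and the other 5 are among 49 sets with counts in at least 2 lines. ESC Host 2 was at 5.588 CPM of Cldn7, with the other ESC Host lines at 2.01 to 2.347 CPM, and at 11.4 CPM of Krt18, with the others at 3.092 to 4.164 CPM. PGC-ESC BaxKO 5 was at 2.897 CPM of Krt13, with the others at 0.8883 to 1.412 CPM. Krt5 was at 0.53 CPM in ESC Host 1, with the others at 0.132 to 0.1855 CPM, and at 0.4909 CPM in PGC-ESC BaxKO 1, with the others at 0.03057 to 0.1297 CPM. In 4 sets the other lines were at 0: Cldn1 in PGC-ESC BaxKO 5 (0.04324 CPM), Krt12 in ESC Host 3 (0.06184 CPM), Krt75 in ESC Host 3 (0.06184 CPM) and Krt9 in PGC-ESC BaxKO 4 (0.08071 CPM). Their cause was not tested.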

How the results depend on the processing

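Of 771 values of a named member under an alternative, 667 kept their call, 104 lost it and 0 changed sign. Of 56 calls, 30 were kept under every alternative in which the member had a value. Fits whose filter removed a member are left out and not counted as lost, and the threshold of 0.01 is not part of this tally. With only the compared groups fitted, 12 of the 23 DKO calls were found again. The number of members called in EpiLC Host against ESC Host was 22, and 13 to 22 without any 1 library (13 without EpiLC Host 4). Calls over all genes were 7206, and 5112 without EpiLC Host 4. In EpiLC DKO against PGC-ESC DKO it was 23, and 14 when only the compared groups were fitted, where 17 members had a value. In ESC BaxKO against ESC Host it was 0, with 2 by DESeq2, 1 with the term for Y-linked reads and 0 to 1 without any 1 library. In PGC-ESC BaxKO against PGC-ESC DKO it was 11, with 3 at an adjusted p under 0.01, 1 with the Rn45s set as a term and 4 to 12 without any 1 library (4 without PGC-ESC DKO 2). Calls over all genes in that comparison were 3858, with 1385 at an adjusted p under 0.01, 204 with the Rn45s term and 1552 without PGC-ESC DKO 2. In ESC BaxKO against ESC Host, calls over all genes were 821, with 1419 by DESeq2 and 210 with the term for Y-linked reads. The cause of these differences was not tested. With the parent line as a replicate block, 21 and 24 of 31 members with a value were called in the EpiLC comparisons. Of these, 18 and 21 were shared with the fit without it, and 0 members were called for the difference of responses. Calls over all genes with that block were 6969 and 8092, beside 7206 and 7792 without it. How many genes the block fit tested is not given here. The members that the block added and removed are named beside their results, except Krt9 in DKO cells, which that smaller fit did not test. The block changed no other member's call.

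In the other comparisons same-numbered lines share only a number, and their deviations correlated at -0.236 to 0.049. With that number as a replicate block, 0 members were called in PGC-ESC BaxKO against PGC-ESC DKO, where 18 had a value, and 0 in PGC-ESC BaxKO against ESC BaxKO, PGC-ESC DKO against ESC Host and ESC BaxKO against ESC Host. Over all genes, that block left 418 calls in PGC-ESC BaxKO against PGC-ESC DKO, beside 3597 in a fit of the same groups without it. EpiLC DKO and EpiLC Host share 1 number, so no block was fitted. A fit of libraries with high Rn45s alone could not be made where PGC-ESC BaxKO is compared, since all its lines are low.

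Members under 1 CPM rest on few counts, so depth limits them, and many of their calls also depend on single lines; EpiLC Host has 2 libraries.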
